A study of Mus musculus with 18 samples.

Results

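The genes described here are 36 members of the nuclear receptor superfamily, chosen by name: the receptors other than those for androgen and glucocorticoid, the retinoic acid receptors alpha and beta, Pparg and Nr4a1. Of the 36, 34 were measured, among 18193 gene symbols with a probe set of their own on the array. Nr1h2 and Nr2e3 were not the single symbol of any probe set in GEO's annotation of the array and have no value here. The 34 genes were covered by 96 probe sets (sets of short oligonucleotides for one transcript), 10 genes by 1 probe set and 24 by several, with 9 for Rora as the most. Unless another is named, a gene's value comes from its brightest probe set, judged by the average of the 18 arrays.

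Fetal lungs of BALB/c mice were compared between vehicle males, vehicle females and flutamide-treated males at gestational day (GD) 17 and GD18, giving the groups 17 m, 17 f, 17 flut, 18 m, 18 f and 18 flut. Dams received either vehicle or 1 mg of the antiandrogen flutamide under the skin every day, beginning on GD10 and ending the day before harvest, so all control fetuses came from injected dams as well. Each of the 3 arrays of a group carried RNA pooled from 3 fetuses of 1 sex and treatment, each from another litter. The drug was given to the dam, and no flutamide-treated female lungs were analysed here. Levels are log2 of the RMA signal (a background-subtracted, normalized probe set intensity), and a difference of 1 on that scale is a 2-fold difference. Levels are compared only within a probe set, since probe sets differ in brightness for the same amount of RNA.

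Nuclear receptors are transcription factors with a DNA-binding domain of zinc fingers and a ligand-binding domain that opens a surface for coactivators or holds corepressors. Steroid receptors bind DNA as homodimers, whereas the receptors for thyroid hormone, vitamin D, fatty acids and oxysterols mostly bind as heterodimers with a retinoid X receptor (RXR), and several orphan members bind as monomers with no known hormone. In the late fetal lung, glucocorticoid, retinoid and thyroid hormone signals act on epithelial and mesenchymal differentiation, and lipid-sensing receptors act on the fatty acid and sterol genes that surfactant synthesis draws on.

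The label of lung was borne out by the surfactant gene Sftpc, at 13.92 to 14.72 in all 18 pools. Of the 5 pools that stand apart, 17 f pools 2 and 3 and 17 m pool 3 were higher than each of the other 15 pools in 11 of 11 measured exocrine pancreas genes (14 listed). Their mean deviation from the all-array mean was 2.47 to 3.12, against -0.815 to -0.453 in the other 15. The fourth, 18 m pool 3, was above the other 17 pools in 11 of 12 measured liver genes (14 listed), with a mean deviation of 3.13, where the remaining pools ran from -2.16 to 1.98. The fifth, 18 flut pool 3, had Xist at 11.95 against 8.15 and 8.08 in 18 flut pools 1 and 2, and the Y-linked gene Uty at 7.11 against 8.34 and 8.31. The female groups had Xist at 11.33 to 12.51 and Uty at 3.48 to 3.84. In 18 flut pool 3, Xist was thus in the female range and Uty above every female pool. Results that rest on these pools are given with and without them, and the part of other organs' RNA in the results was not tested. In RNA from whole lung, fewer cells of a type and less RNA per cell cannot be told apart.

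More receptors were called between the gestational days than between the sexes or with flutamide, and the same was true of all genes. From GD17 to GD18 the level of Ppara, the fatty acid receptor PPAR alpha, rose 1.69-fold in males, 1.44-fold in females and 1.50-fold in flutamide-treated males. Rora, the orphan receptor ROR alpha that activates clock genes, rose 1.66-fold, 2.47-fold and 1.63-fold in the same order. Nr2f1, the orphan repressor COUP-TFI, fell in males and females, and Nr5a2, the phospholipid-binding receptor LRH-1, fell in females and in flutamide-treated males. No receptor was called between males and females on either day, where 1.67% and 1.68% of all genes were. Flutamide-treated males were called lower in Rorb at GD17, and lower in Nr5a2 and higher in Rarg at GD18, than vehicle males. These were 2.94% and 5.88% of the receptors, against 2.69% and 4.22% of all genes. Each of these calls was lost without at least 1 single pool, and the other Rorb probe sets had the opposite sign.

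A gene was called when limma's moderated test gave an adjusted p under 0.05 over all 45037 probe sets. In males, 11 of the 34 receptors (32.4%) were called between the days, 8 higher and 3 lower at GD18, where 25% of all probe sets and 30.1% of 18193 genes with 1 probe set each were called (17.7% higher and 12.4% lower). In females the count was 16 of 34 (47.1%), 11 higher and 5 lower, against 33.6% of probe sets and 39.6% of genes (17.2% higher and 22.5% lower). In flutamide-treated males it was 4 of 34 (11.8%), 2 higher and 2 lower, against 20.3% and 26.7% (13% higher and 13.8% lower). The receptors' median difference was 0.11, 0.14 and 0.05 in males, females and flutamide-treated males, and that of all genes 0.03, -0.01 and -0.01. With all 5 pools that stand apart left out, an alternative chosen after seeing the data, the counts were 7, 8 and 5, against 18%, 25.9% and 20.5% of probe sets. Without 18 m pool 3 alone the count in males was 7 (21.6% of probe sets). Without 17 m pool 1 and 17 m pool 2 it was 6 and 7 (19.8% and 21.6%). Without 18 f pool 1 the count in females was 8 (27.7%), and without 18 m pool 3 that in flutamide-treated males was 7 (25.1%).

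The 3 day comparisons share no arrays, though they share the variance of the model. The difference had the same sign in all 3 for 21 of 34 receptors (61.8%, 15 up and 6 down), and for 59.8% of all genes. The receptors called in at least 1 of them were 20 (58.8%, against 47.9% of all genes), and those called in all 3 were 2, Ppara and Rora (5.88%, against 18.7%). The pools of the days did not overlap for 14, 22 and 12 receptors in males, females and flutamide-treated males, where 38.6%, 53.5% and 46.2% of all genes did so. No receptor was called for a day difference that itself differed between males and females (6.54% of probe sets and 4.77% of genes were). At an unadjusted p under 0.05 in limma there were 5, against 19.8% of all genes. The same held between males and flutamide-treated males (0.364% of probe sets and 0.17% of genes). There were 4 at an unadjusted p under 0.05, against 10.9% of all genes. The plot of day differences by gene shows these values for every receptor.

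**Figure D1:**
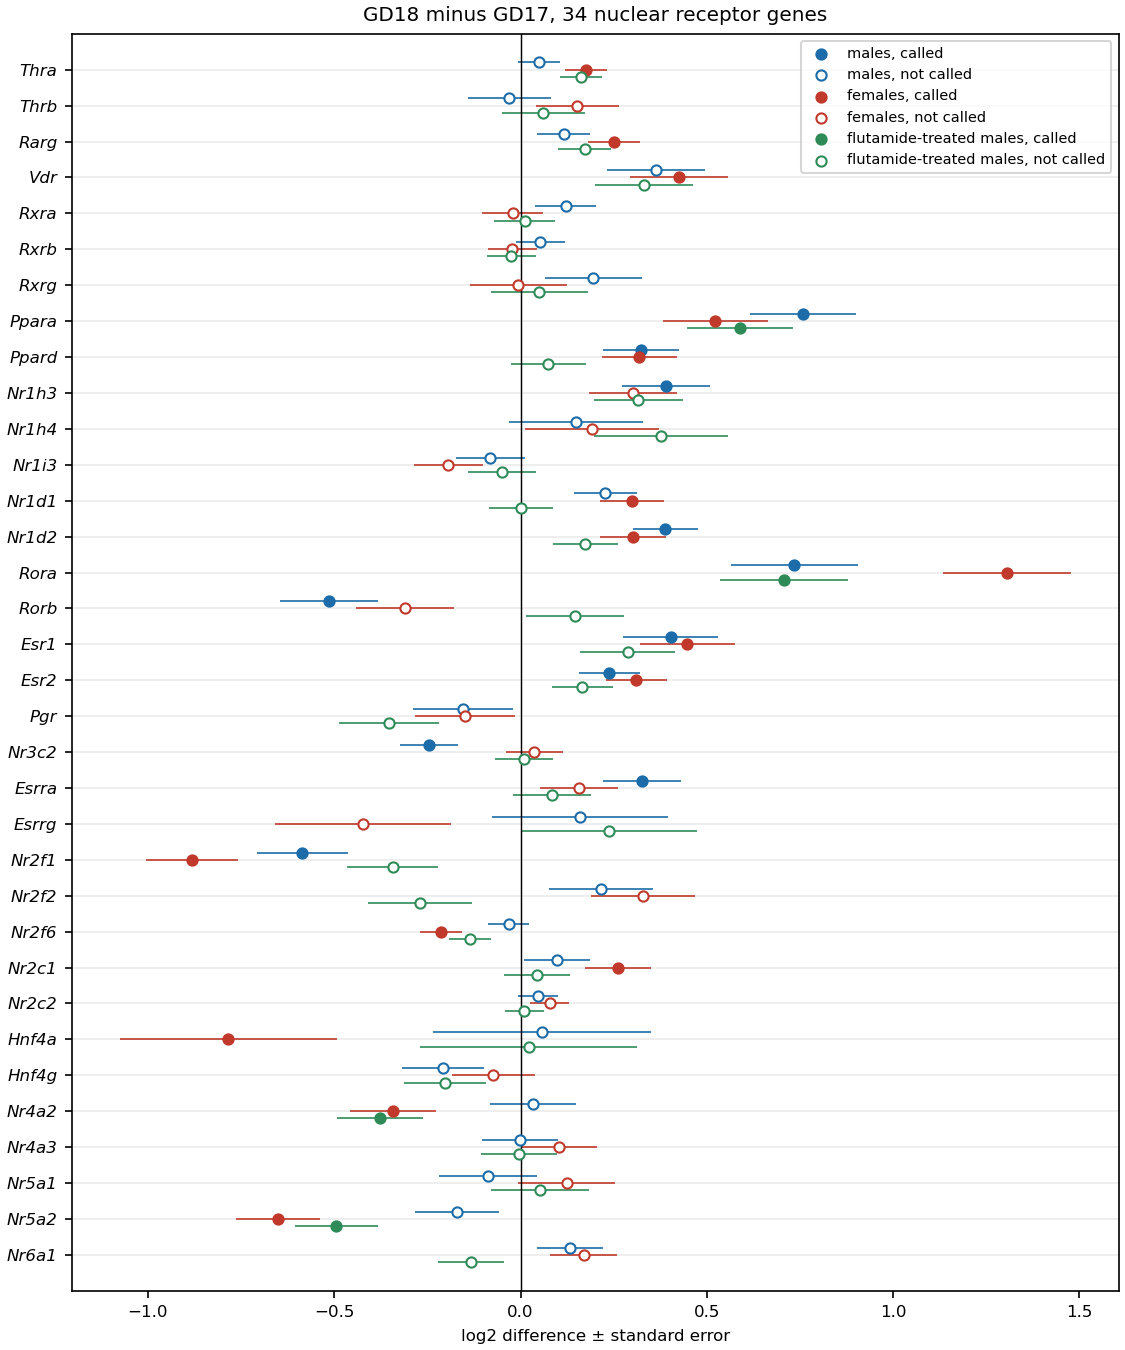
Difference in log2 RMA signal between GD18 and GD17 (x axis) with its standard error for each of 34 nuclear receptor genes (y axis) in males, females and flutamide-treated males, 3 pools per group. Filled points are called (adjusted p under 0.05 in limma) and open points are not. Ppara and Rora are filled and right of 0 in all 3 comparisons, and Nr2f1 lies left of 0 in each.

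The receptors that sense fatty acids, sterols and bile acids are described first. Ppara turns on genes of fatty acid oxidation. Its level was 6.69, 6.87 and 6.83 in 17 m pools 1 to 3 and 7.28, 7.45 and 7.92 in 18 m. In females it was 7.01, 7.19 and 7.17 at GD17 and 7.55, 7.75 and 7.64 at GD18, and in flutamide-treated males 7.04, 6.89 and 6.63 and then 7.24, 7.61 and 7.48. Every GD18 pool lay above every GD17 pool of its group, and the highest value was that of 18 m pool 3. The difference was 0.76 in males, 0.52 in females and 0.59 in flutamide-treated males (SE 0.14 each, adjusted p 0.000884, 0.00838 and 0.0065 in limma), and 0.59, 0.63 and 0.57 without the 5 pools. It was called under every alternative tried. A second Ppara probe set rose by 1.29 in males and 0.87 in flutamide-treated males and had a difference of 0.45 in females that was not called (adjusted p 0.16). The call in flutamide-treated males was lost without 17 flut pool 1 (adjusted p 0.054). The remaining one was called in none of them.

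Ppard encodes PPAR delta, a fatty acid receptor of many tissues. It was at 6.45, 6.26 and 6.37 in 17 m and at 6.51, 6.55 and 6.99 in 18 m. In females it went from 6.18, 6.35 and 6.37 to 6.61, 6.59 and 6.65. The values did not overlap in either sex, and 18 m pool 3 was again the highest. The differences of 0.32 and 0.32 (SE 0.10) were both called (adjusted p 0.0269 and 0.0216), but the one in males was 0.17 without 18 m pool 3 and not called (adjusted p 0.119). The call was also lost in males without 17 m pool 2 or 17 m pool 3, and in females without 17 f pool 1, 18 f pool 1 or 18 f pool 3 (adjusted p up to 0.0923). In 17 flut, Ppard was 6.56, 6.56 and 6.52, and in 18 flut 6.53, 6.67 and 6.66, which was not called. The other Ppard probe set differed by 0.0009, -0.05 and -0.08 in males, females and flutamide-treated males, none of them called. The mean of both probe sets rose by 0.16 in males, called (adjusted p 0.0275), and 0.13 in females, not called (adjusted p 0.0544).

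Nr1h3 encodes the oxysterol receptor LXR alpha, which drives sterol efflux and fatty acid synthesis genes. Its level was 6.87, 7.18 and 6.92 in 17 m and 7.49, 7.48 and 7.18 in 18 m, where pool 3 fell inside the GD17 range. The difference of 0.39 was called (SE 0.12, adjusted p 0.0229) and was 0.46 without the 5 pools. It lost its call without 17 m pool 1 or 3, or 18 m pool 1 or 2 (0.33 to 0.36). The difference was 0.30 in females and 0.32 in flutamide-treated males, neither of them called (adjusted p 0.0612 and 0.0734), with the GD18 pools at 7.21, 7.28 and 7.25 and at 7.34, 7.13 and 7.68.

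The bile acid receptor FXR (Nr1h4) and the xenobiotic receptor CAR (Nr1i3), which are known mainly from liver and gut, were called in no comparison. Nr1h4 was between 4.75 and 5.54 in 17 pools and at 5.92 in 18 m pool 3, the pool highest in liver genes. Nr1i3 lay between 4.40 and 4.91 in all 18 pools.

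Receptors of the circadian clock formed the second group. Rora and Rorb encode activators that compete at the same response elements with the heme-binding repressors REV-ERB alpha and beta, encoded by Nr1d1 and Nr1d2. Rora was at 6.35, 6.55 and 6.62 in 17 m and at 6.99, 7.04 and 7.70 in 18 m. In 17 f it was 6.55, 6.16 and 6.21, and in 18 f 7.86, 7.66 and 7.32. In 17 flut it was 6.31, 6.25 and 6.53, and in 18 flut 7.19, 7.0 and 7.03. No GD18 pool overlapped its GD17 group, and 18 m pool 3 lay within the range of the 18 f pools. The difference was 0.74 in males, 1.31 in females and 0.71 in flutamide-treated males (SE 0.17, adjusted p 0.00464, 1.66e-05 and 0.00691), and 0.56, 1.06 and 0.73 without the 5 pools. Of the 8 other Rora probe sets, 5 rose in males, 6 in females and 2 in flutamide-treated males, while 1 fell in males (-0.27, adjusted p 0.042). Without the 5 pools, 1 of those 5, 5 of the 6 and both of the last were called, and the fall was not (-0.14, adjusted p 0.396).

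Without 18 m pool 3, Rora was lower in males than in females at GD18 (difference -0.60, adjusted p 0.0231), whereas with it the difference was -0.37 and not called (adjusted p 0.339). It was also called with array weights, which keep that pool at a weight of 0.166 (-0.55, adjusted p 0.0131). The change of the sex difference with the day was -0.57 and not called with all pools (adjusted p 0.192), was called without 18 m pool 3 (-0.80, adjusted p 0.0156) and with array weights (-0.79, adjusted p 0.0118), and was not called when all 5 pools were left out.

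Nr1d2 was at 8.22, 8.11 and 7.87 in 17 m and at 8.45, 8.41 and 8.51 in 18 m. In females it went from 8.12, 8.18 and 8.21 to 8.58, 8.47 and 8.36. The values did not overlap, and the differences of 0.39 in males and 0.30 in females were called (SE 0.09, adjusted p 0.00361 and 0.0129). In flutamide-treated males the difference was 0.17, with 8.10, 8.15 and 8.01 at GD17 and 8.13, 8.30 and 8.35 at GD18, and it was not called. The call was lost in males (0.27, adjusted p 0.0732) and held in females (0.35, adjusted p 0.0306) when the 5 pools were left out, while in females it was lost without 18 f pool 1 (0.25, adjusted p 0.0709). The other Nr1d2 probe set had differences of -0.09, 0.14 and 0.19, none of them called.

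Nr1d1 was called in females, where it went from 5.67, 5.61 and 5.56 to 5.90, 5.97 and 5.86 with no overlap (difference 0.30, SE 0.09, adjusted p 0.0114). That difference was 0.24 without the 5 pools and not called (adjusted p 0.114). In males it was 0.23 (adjusted p 0.0623), with 5.82, 5.58 and 5.59 and then 5.83, 5.74 and 6.09. In flutamide-treated males the level was 5.91, 5.85 and 5.79 at GD17 and 5.87, 5.81 and 5.86 at GD18.

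Rorb, ROR beta, is best known from retina and brain, and its probe set was below the median level of the array. It was at 6.45, 6.04 and 6.10 in 17 m, the highest of the 6 groups, and at 5.66, 5.86 and 5.53 in 18 m. The groups did not overlap, and the difference of -0.51 was called (SE 0.13, adjusted p 0.00857), though not without 17 m pool 1 (-0.39, adjusted p 0.0539). In females the level was 6.07, 5.90 and 5.76 at GD17 and 5.57, 5.71 and 5.51 at GD18. The difference of -0.31 was not called (adjusted p 0.0833). The other 2 Rorb probe sets differed by -0.18 and 0.03 between the days in males and were not called.

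To show where these day-regulated genes start, the RefSeq promoter windows of Ppara, Rora and Nr1d2, which rose, and of Nr5a2, which fell, are printed on the GRCm38.p6 assembly, from 250 bases before to 50 bases after the start of transcription. Capitals mark the nuclear receptor core motif AGGTCA on either strand (TGACCT on the other) and the E-box CACGTG bound by clock proteins, and the motifs can share letters where they adjoin. Ppara lies on chr15:85735526-85735825 (plus strand), Rora on chr9:68653536-68653835 (plus), Nr1d2 on chr14:18239057-18239356 (minus) and the upstream one of the Nr5a2 windows on chr1:136960399-136960698 (minus).
Ppara: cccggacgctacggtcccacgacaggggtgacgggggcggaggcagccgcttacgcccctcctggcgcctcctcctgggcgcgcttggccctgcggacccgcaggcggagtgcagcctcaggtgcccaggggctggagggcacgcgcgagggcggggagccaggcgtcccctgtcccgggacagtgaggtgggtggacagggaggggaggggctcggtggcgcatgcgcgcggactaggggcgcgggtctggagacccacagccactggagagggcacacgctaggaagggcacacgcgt
Rora: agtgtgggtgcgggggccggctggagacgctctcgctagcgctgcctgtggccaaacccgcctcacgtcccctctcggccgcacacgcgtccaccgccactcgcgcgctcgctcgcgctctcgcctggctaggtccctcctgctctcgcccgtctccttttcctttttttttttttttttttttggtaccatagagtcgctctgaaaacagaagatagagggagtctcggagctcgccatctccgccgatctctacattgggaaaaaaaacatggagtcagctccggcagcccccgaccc
Nr1d2: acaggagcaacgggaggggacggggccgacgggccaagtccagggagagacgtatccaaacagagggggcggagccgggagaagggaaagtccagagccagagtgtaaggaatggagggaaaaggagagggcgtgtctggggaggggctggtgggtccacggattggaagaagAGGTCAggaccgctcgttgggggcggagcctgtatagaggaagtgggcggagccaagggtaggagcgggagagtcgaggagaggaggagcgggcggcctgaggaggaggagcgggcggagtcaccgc
Nr5a2: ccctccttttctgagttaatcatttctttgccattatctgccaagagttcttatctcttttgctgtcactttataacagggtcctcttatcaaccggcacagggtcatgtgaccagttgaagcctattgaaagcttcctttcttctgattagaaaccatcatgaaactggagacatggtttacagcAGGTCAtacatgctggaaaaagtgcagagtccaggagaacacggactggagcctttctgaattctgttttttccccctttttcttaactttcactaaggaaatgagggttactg
The core motif was present in the printed Nr1d2 and Nr5a2 windows, 1 each, and not in those of Ppara and Rora. The other Nr5a2 window, chr1:136953581-136953880, is not printed and held none. Over all members with a RefSeq window, 33 of 36 genes with 48 windows, it was in 8 windows (16.7%) of 8 genes, Nr1d2, Nr1h4, Nr5a2, Nr6a1, Rarg, Rxra, Rxrg and Thrb, while 16.3% of 32851 mouse windows held it. The E-box was in 3 member windows, those of Esr2, Nr1i3 and Thrb (6.25%), and in 7.15% of all windows. A match is a run of letters and was not tested as a binding site.

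**Figure D2:**
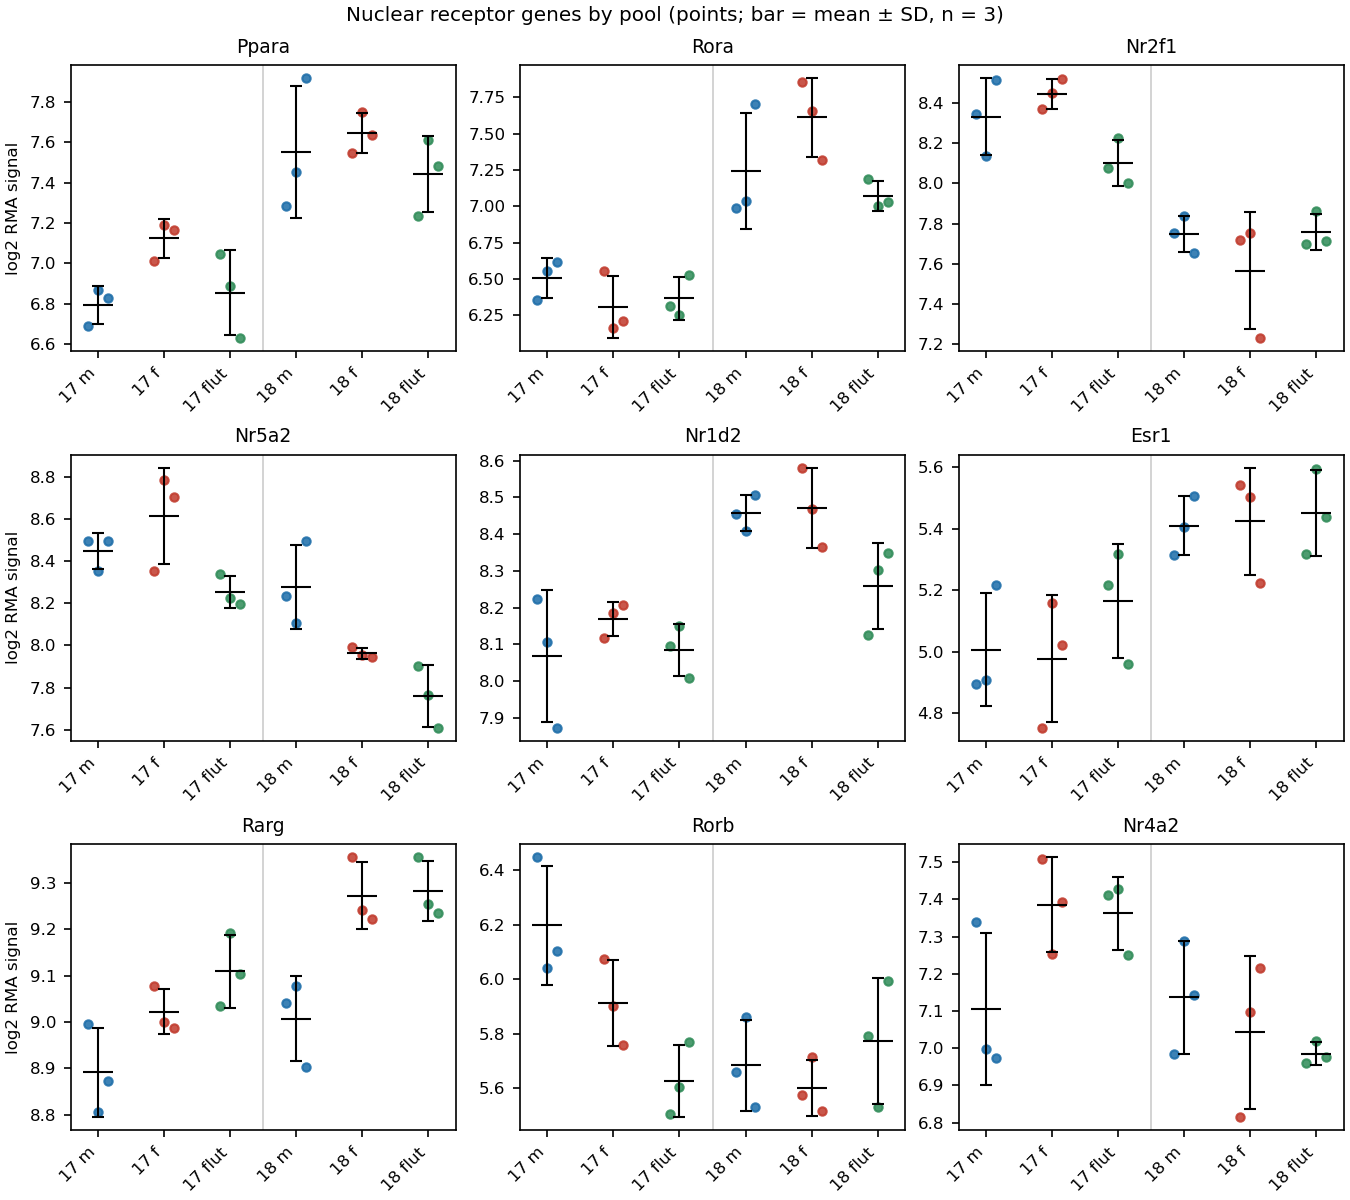
Log2 RMA signal (y axis, a scale of its own in each panel) in each pool of the 6 groups (x axis) for 9 of the called receptor genes. Coloured points are the 3 pools of a group, the horizontal bar their mean and the vertical bar the SD. In the Ppara and Rora panels every GD18 pool lies above every GD17 pool of its own group, and in the Rarg panel the 18 m pools lie below the 18 f and 18 flut pools.

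Of the steroid receptors and their orphan relatives, Esr1 and Esr2, the estrogen receptors alpha and beta, rose in both sexes. Esr1 went from 4.90, 4.91 and 5.22 to 5.32, 5.41 and 5.51 in males and from 4.75, 5.16 and 5.02 to 5.54, 5.50 and 5.22 in females. The days did not overlap in either sex, though the nearest pools were close. The differences were 0.40 and 0.45 (SE 0.13, adjusted p 0.0287 and 0.0116), and 0.46 and 0.67 without the 5 pools. The call was lost in males without 17 m pool 1 or 2, or 18 m pool 2 or 3 (adjusted p up to 0.108), and in females without 17 f pool 1 or 18 f pool 1 (adjusted p up to 0.0674). In flutamide-treated males Esr1 was 5.22, 5.32 and 4.96 and then 5.32, 5.60 and 5.44, and the difference of 0.29 was not called. The other 2 Esr1 probe sets differed between the days by no more than 0.15 and were not called.

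Esr2 went from 5.43, 5.32 and 5.51 to 5.63, 5.68 and 5.67 in males and from 5.35, 5.08 and 5.36 to 5.61, 5.58 and 5.54 in females. The groups did not overlap, and the differences of 0.24 and 0.31 were called (SE 0.08, adjusted p 0.0414 and 0.00658). They were 0.28 (adjusted p 0.047) and 0.22 (adjusted p 0.146) without the 5 pools. The call in males was lost without any of 10 single pools, among them 5 of the 6 compared (0.19 to 0.25, adjusted p up to 0.16). In flutamide-treated males Esr2 was 5.61, 5.47 and 5.37 and then 5.72, 5.61 and 5.62, which was not called.

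Esrra, the estrogen-related receptor alpha of mitochondrial gene programs, went from 7.01, 7.06 and 7.08 in 17 m to 7.26, 7.29 and 7.57 in 18 m with no overlap (difference 0.33, SE 0.10, adjusted p 0.0309). Without 18 m pool 3 it was 0.23 and not called (adjusted p 0.143), and the call was lost without any single 17 m pool as well. In females Esrra was 7.18, 7.44 and 7.21 and then 7.37, 7.37 and 7.56, not called in this probe set, while another rose by 0.43 (adjusted p 0.00895). That call was lost without the 5 pools (0.38, adjusted p 0.0527), without 17 f pool 3 and without 18 f pool 1. In flutamide-treated males it was 7.29 in each of the GD17 pools and 7.13, 7.53 and 7.46 at GD18.

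Nr3c2 encodes the mineralocorticoid receptor, which acts on epithelial sodium channels. It fell in males, from 5.55, 5.49 and 5.62 to 5.27, 5.29 and 5.36, with no overlap (difference -0.25, SE 0.08, adjusted p 0.0276). Leaving out the 5 pools gave -0.24, not called (adjusted p 0.102), and the call was lost without 17 m pool 1 or 3, or 18 m pool 1 or 2. In females it was 5.49, 5.31 and 5.46 and then 5.44, 5.52 and 5.42, and in flutamide-treated males 5.57, 5.46 and 5.48 and then 5.40, 5.70 and 5.44. Neither was called.

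The progesterone receptor gene Pgr and Esrrg, the estrogen-related receptor gamma, were called in no comparison. Pgr lay between 4.34 and 5.0 in all pools. Esrrg was at 6.16 and 6.33 in 17 f pools 2 and 3, at 5.84 in 18 m pool 3 and at 5.61 in 17 m pool 3, and between 5.09 and 5.59 in the other 14 pools. Those 4 pools are among the 5 that stand apart, and the plot of receptor levels against organ genes shows them.

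Among the receptors for retinoids, thyroid hormone and vitamin D, Rarg encodes the retinoic acid receptor gamma and was higher at GD18 in females. It went from 9.08, 9.0 and 8.99 to 9.36, 9.24 and 9.22 there, with no overlap (difference 0.25, SE 0.07, adjusted p 0.0112). Leaving out the 5 pools gave 0.20, not called (adjusted p 0.207), and leaving out 18 f pool 1 alone gave 0.21 (adjusted p 0.0607). In males it was 9.0, 8.81 and 8.87 and then 9.04, 9.08 and 8.90, a difference of 0.12 that was not called. In flutamide-treated males it was 9.03, 9.19 and 9.10 and then 9.36, 9.26 and 9.23, a difference of 0.17 (adjusted p 0.107). The other Rarg probe set differed by 0.09 in females, -0.28 in males and 0.17 in flutamide-treated males, none of them called. The mean of both probe sets rose by 0.17 in females and was not called (adjusted p 0.256).

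Vdr, the vitamin D receptor, went from 5.43, 5.36 and 4.98 to 5.65, 5.75 and 5.65 in females (difference 0.42, SE 0.13, adjusted p 0.0188). It was 0.25 and not called without the 5 pools (adjusted p 0.176), and its call was lost without 17 f pool 3 or 18 f pool 2. The difference was 0.36 in males and 0.33 in flutamide-treated males (adjusted p 0.0541 and 0.0912), with 5.09, 5.09 and 5.40 against 5.34, 5.55 and 5.78 and with 5.50, 5.21 and 5.28 against 5.69, 5.52 and 5.78. The other Vdr probe set was called in males (0.31, adjusted p 0.0207), also without the 5 pools (adjusted p 0.0175), and lost its call without 17 m pool 1 or 2, or 18 m pool 1 or 3 (adjusted p up to 0.0974). It differed by 0.11 in females and 0.13 in flutamide-treated males, neither of them called.

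Thra, the thyroid hormone receptor alpha, went from 9.53, 9.52 and 9.64 to 9.80, 9.71 and 9.70 in females, with a small difference of 0.18 that was called (SE 0.06, adjusted p 0.0225) and was 0.21 without the 5 pools (adjusted p 0.0781). It lost its call without 17 f pool 1 or 2, or 18 f pool 1. In males it was 9.54, 9.61 and 9.49 and then 9.58, 9.63 and 9.59, and in flutamide-treated males 9.53, 9.51 and 9.56 and then 9.70, 9.71 and 9.67, neither of them called. Another Thra probe set rose in males, females and flutamide-treated males, by 0.38, 0.31 and 0.33 (adjusted p 0.0102, 0.0266 and 0.0295), and its levels were 7.77, 7.64 and 7.56 in 17 m and 7.93, 7.88 and 8.29 in 18 m. The remaining probe set was called in males (0.33, adjusted p 0.0346), and in males neither was called without the 5 pools (adjusted p 0.182 and 0.426). The probe set that rose in all 3 was not called in females either without the 5 pools (0.23, adjusted p 0.164) or without 17 f pool 2, 17 f pool 3 or 18 f pool 1. In flutamide-treated males it was called without the 5 pools (0.31, adjusted p 0.028) and lost its call without any single pool compared other than 17 flut pool 1.

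The common dimer partners were called in no comparison. Rxra lay between 8.10 and 8.53, Rxrb between 9.57 and 9.82 and Rxrg between 5.03 and 5.86 over all 18 pools, and Thrb, the thyroid hormone receptor beta, between 4.42 and 5.12. The 11 receptors called in no probe set and no comparison were Thrb, Rxra, Rxrb, Rxrg, Nr1h4, Nr1i3, Pgr, Esrrg, Hnf4g, Nr4a3 and Nr5a1. The largest difference among them in size, over the 7 comparisons of a pair of groups, was 0.52, for Esrrg between 17 m and 17 f, and the smallest adjusted p was 0.0778, for Pgr from 17 flut to 18 flut. The median standard error over the receptors was 0.11, and the number of arrays, 3 per group, limits this precision.

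The orphan receptors held the clearest falls. Nr2f1, which marks mesenchyme and neural tissue in embryos, went from 8.34, 8.14 and 8.52 to 7.75, 7.84 and 7.65 in males. In females it went from 8.37, 8.45 and 8.52 to 7.72, 7.75 and 7.23, and in flutamide-treated males from 8.08, 8.23 and 8.0 to 7.70, 7.86 and 7.71. The days did not overlap in any group, and 18 f pool 3 was the lowest pool of all. The fall was called in males (-0.59, SE 0.12, adjusted p 0.00217) and females (-0.88, adjusted p 3.01e-05) and not in flutamide-treated males (-0.34, adjusted p 0.0604). The fall was -0.45 in males (adjusted p 0.0666) and -0.80 in females (adjusted p 0.00525) without the 5 pools.

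Its relative Nr2f2, COUP-TFII, is known from lung mesenchyme and veins and was not called in its brightest probe set. That probe set read 9.70, 9.54 and 9.55 in 17 f and 9.84, 9.93 and 10.01 in 18 f (difference 0.33, adjusted p 0.0842). Another probe set rose in females, from 8.79, 8.69 and 8.88 to 9.09, 9.07 and 8.96 (0.25, SE 0.07, adjusted p 0.0104), and had 0.25 without the 5 pools (adjusted p 0.0602) and no call without 17 f pool 2. Nr2f6, the third of the family, fell in females from 9.13, 9.12 and 9.23 to 8.97, 8.93 and 8.95 (-0.21, SE 0.06, adjusted p 0.00675). That was -0.18 without the 5 pools and not called (adjusted p 0.145), and the other Nr2f6 probe set fell too (-0.22, adjusted p 0.0278), with a call that was lost without any of 4 single pools (17 f pools 1 and 2, 18 f pools 2 and 3) and held without the 5 pools. Nr2f6 was 9.03, 9.04 and 9.05 in 17 m, 9.04, 9.0 and 8.99 in 18 m, 9.11, 9.10 and 9.12 in 17 flut and 8.87, 9.04 and 9.02 in 18 flut.

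Nr2c1 and Nr2c2 encode the testicular receptors TR2 and TR4, orphan repressors that bind direct repeats of the core motif. Nr2c1 rose in females, from 8.0, 7.85 and 7.96 to 8.25, 8.17 and 8.17 (0.26, SE 0.09, adjusted p 0.03). Leaving out the 5 pools gave 0.20, not called (adjusted p 0.199), and the call was lost without any single pool of the females other than 17 f pool 1. It was 8.22, 8.0 and 7.80 in 17 m, 8.17, 8.10 and 8.05 in 18 m, 8.15, 8.03 and 8.02 in 17 flut and 8.21, 8.06 and 8.06 in 18 flut. Nr2c2 in its brightest probe set lay between 9.99 and 10.22 in all 18 pools and was not called between the days. A dimmer probe set of the gene fell in males, from 5.01, 5.11 and 4.67 to 4.50, 4.62 and 4.48 (-0.40, SE 0.10, adjusted p 0.00936), and was -0.50 without the 5 pools (adjusted p 0.00448). Its call was lost without 17 m pool 2 (adjusted p 0.0536).

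Nr4a2, the immediate early orphan receptor Nurr1, fell in females, from 7.51, 7.25 and 7.39 to 6.81, 7.10 and 7.22, and in flutamide-treated males, from 7.41, 7.43 and 7.25 to 6.96, 7.02 and 6.98. The groups did not overlap, and the differences were -0.34 and -0.38 (SE 0.12, adjusted p 0.0297 and 0.0276). Without the 5 pools they were -0.47 and -0.37 (adjusted p 0.0641 and 0.0727). The calls were lost without 17 f pool 1 or 3 or 18 f pool 1 in females, and without any single pool but 17 flut pool 3 in flutamide-treated males. In males this probe set was not called, at 7.34, 7.0 and 6.98 and then 6.98, 7.29 and 7.14, a difference of 0.03. Another Nr4a2 probe set fell in all 3 day comparisons, with -0.34 in males, -0.72 in females and -0.36 in flutamide-treated males (adjusted p 0.0163, 2.23e-05 and 0.0153). It was called without the 5 pools in females (-0.72, adjusted p 0.00251) and not in males or flutamide-treated males (adjusted p 0.0556 and 0.0596). Its call was lost in males without 17 m pool 1, 18 m pool 1 or 18 m pool 3, and in flutamide-treated males without 17 flut pool 2, 18 flut pool 1 or 18 flut pool 3. Nr4a3 of the same family lay between 7.09 and 7.53.

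Nr5a2 was at 8.50, 8.35 and 8.50 in 17 m and at 8.23, 8.10 and 8.49 in 18 m, which overlapped. In females it went from 8.35, 8.78 and 8.70 to 7.99, 7.95 and 7.94, and in flutamide-treated males from 8.34, 8.23 and 8.19 to 7.90, 7.77 and 7.61. The female and flutamide-treated pools of GD18 all lay below every other pool. The fall was -0.65 in females and -0.49 in flutamide-treated males (SE 0.11, adjusted p 0.000226 and 0.00433), and in males the difference was -0.17 and not called. The highest pools, 17 f pools 2 and 3, are high in pancreas genes, and 18 m pool 3 was the highest male pool at GD18. The other pool high in pancreas genes, 17 m pool 3, was at 8.50, as was 17 m pool 1, which was not high in them. Nr5a2 is also expressed in pancreas, and the part of pancreas RNA in these levels was not tested. Without the 5 pools the falls were -0.39 (adjusted p 0.012) and -0.42 (adjusted p 0.00269), still called. Of the 3 other Nr5a2 probe sets, 2 fell in females and 2 in flutamide-treated males, and without the 5 pools 1 and 2 were called. Its relative Nr5a1, the steroidogenic factor of gonad and adrenal, lay between 4.90 and 5.53 and was not called.

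Nr6a1, the germ cell nuclear factor, was not called in its brightest probe set, where it lay between 5.80 and 6.31. Another probe set rose in females from 5.67, 5.49 and 5.53 to 5.79, 5.90 and 5.89 (0.30, SE 0.09, adjusted p 0.0226), and without the 5 pools it was 0.19 (adjusted p 0.301). The hepatocyte nuclear factors Hnf4a and Hnf4g are receptors of liver, gut and pancreas. Hnf4a was called lower at GD18 in females (-0.78, SE 0.29, adjusted p 0.0486), from 6.83, 7.32 and 7.49 to 6.53, 6.40 and 6.36. The 17 f pools 2 and 3, both high in pancreas and liver genes, were the highest of the female pools, and the difference was -0.40 (adjusted p 0.0564) without the 5 pools. Its call was lost without any of 13 single pools (-0.83 to -0.65, adjusted p up to 0.172). Its level was 7.86 in 18 m pool 3 and 7.24 in 17 m pool 3, against 6.57 and 6.32 in the other 18 m pools and 6.79 and 6.55 in the other 17 m pools. In flutamide-treated males Hnf4a was 6.89, 6.70 and 6.73 at GD17 and 6.77, 7.04 and 6.57 at GD18. Hnf4g lay between 3.84 and 4.41.

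**Figure D3:**
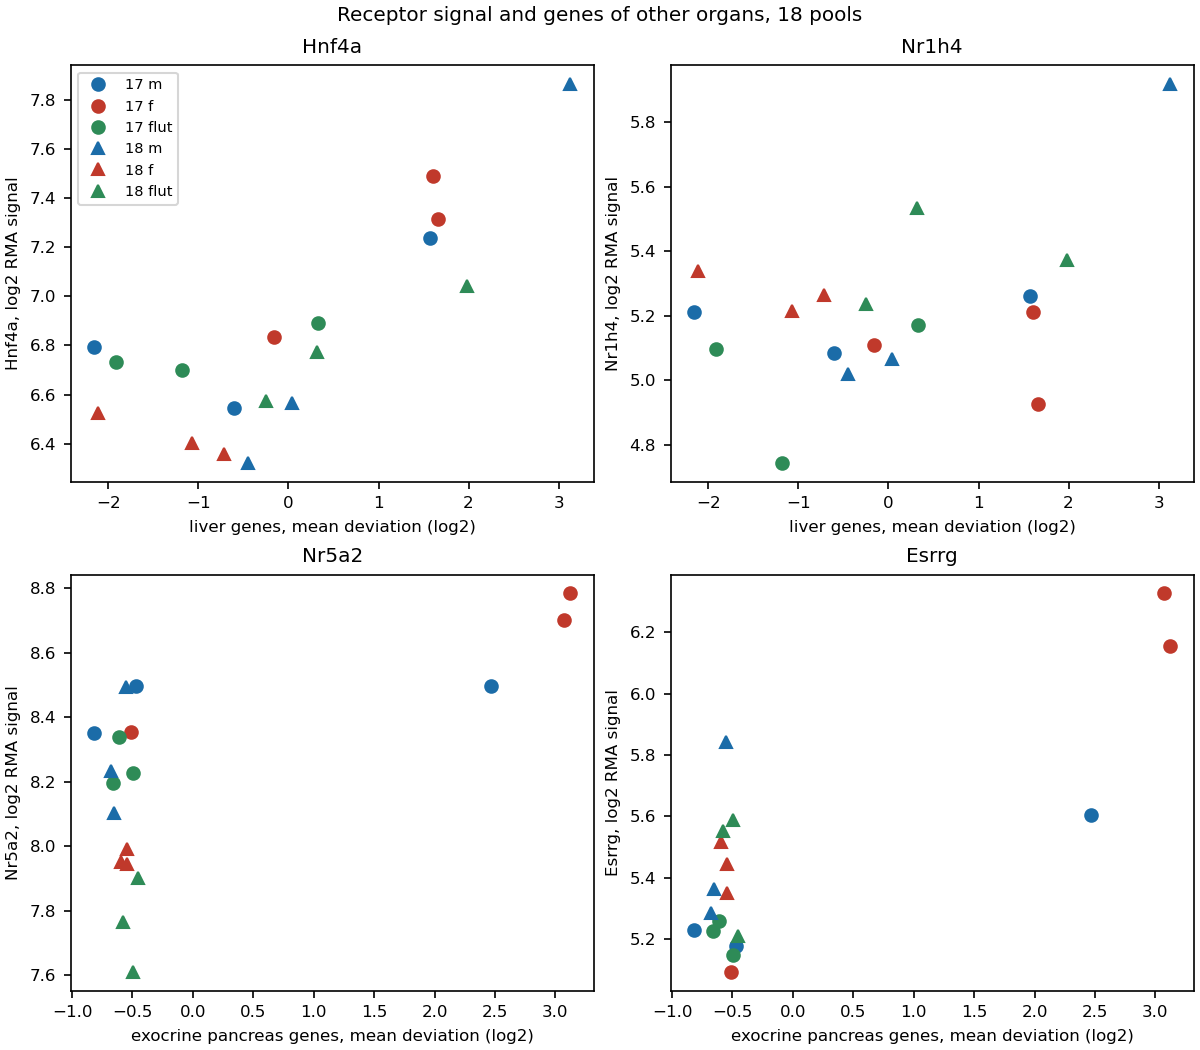
Log2 RMA signal of Hnf4a and Nr1h4 against the mean deviation of the liver genes (upper panels, x axis in log2), and of Nr5a2 and Esrrg against that of the exocrine pancreas genes (lower panels), 1 point per pool, with circles for GD17 and triangles for GD18. The pool at the far right of the liver panels is 18 m pool 3 (3.13), and the 3 at the right of the pancreas panels are 17 f pools 2 and 3 and 17 m pool 3 (2.47 to 3.12).

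The sex comparison asked which receptors differed between male and female lungs of the same day. At GD17, 0 of 34 receptors were called in limma, where 4.1% of all probe sets and 1.67% of all genes were. An unadjusted p under 0.05 was found for 6 receptors, against 13.8% of all genes. The smallest p values were those of Nr4a2 (17 m minus 17 f, -0.28, SE 0.12, adjusted p 0.22) and Ppara (-0.33, SE 0.14, adjusted p 0.249). At GD18, 0 of 34 were called, where 1.85% of probe sets and 1.68% of genes were. An unadjusted p under 0.05 was found for 4, against 15.1% of all genes. The smallest were those of Rarg (18 m minus 18 f, -0.27, SE 0.07, adjusted p 0.0686, and -0.21 with a call under array weights) and Nr5a2 (0.31, SE 0.11, adjusted p 0.182). The median size of the difference over the receptors was 0.0859 at GD17 and 0.0943 at GD18, and over all genes 0.0884 and 0.0857. The groups did not overlap for 5 receptors at GD17 and 7 at GD18, against 20.7% and 17.9% of all genes.

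For 2 receptors another probe set was called between the sexes. The Nr2c2 probe set 1439696_at read 5.01, 5.11 and 4.67 in 17 m, and 4.41, 4.24 and 4.19 in 17 f. Every 17 m pool was above every 17 f pool. The difference was 0.65 (SE 0.10, adjusted p 0.00151), and as large without the 5 pools (adjusted p 0.0187). At GD18 it read 4.50, 4.62 and 4.48 in 18 m and 4.42, 4.52 and 4.72 in 18 f, a difference of -0.02. It is a dim probe set, and of the other 5 Nr2c2 probe sets none was called in this comparison. The brightest was at 10.17, 10.10 and 10.08 in 17 m and 10.05, 9.99 and 10.05 in 17 f, a difference of 0.09 (adjusted p 0.458). The Nr5a2 probe set 1456521_at read 7.02, 7.21 and 7.30 in 18 m and 6.81, 6.80 and 6.69 in 18 f. The groups did not overlap, with a difference of 0.41 (SE 0.09, adjusted p 0.0292) that was 0.35 without the 5 pools (adjusted p 0.0272) and lost its call without any single 18 f pool or without 18 m pool 2 (adjusted p up to 0.121). The brightest Nr5a2 probe set differed by 0.31 in the same direction and was not called.

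**Figure D4:**
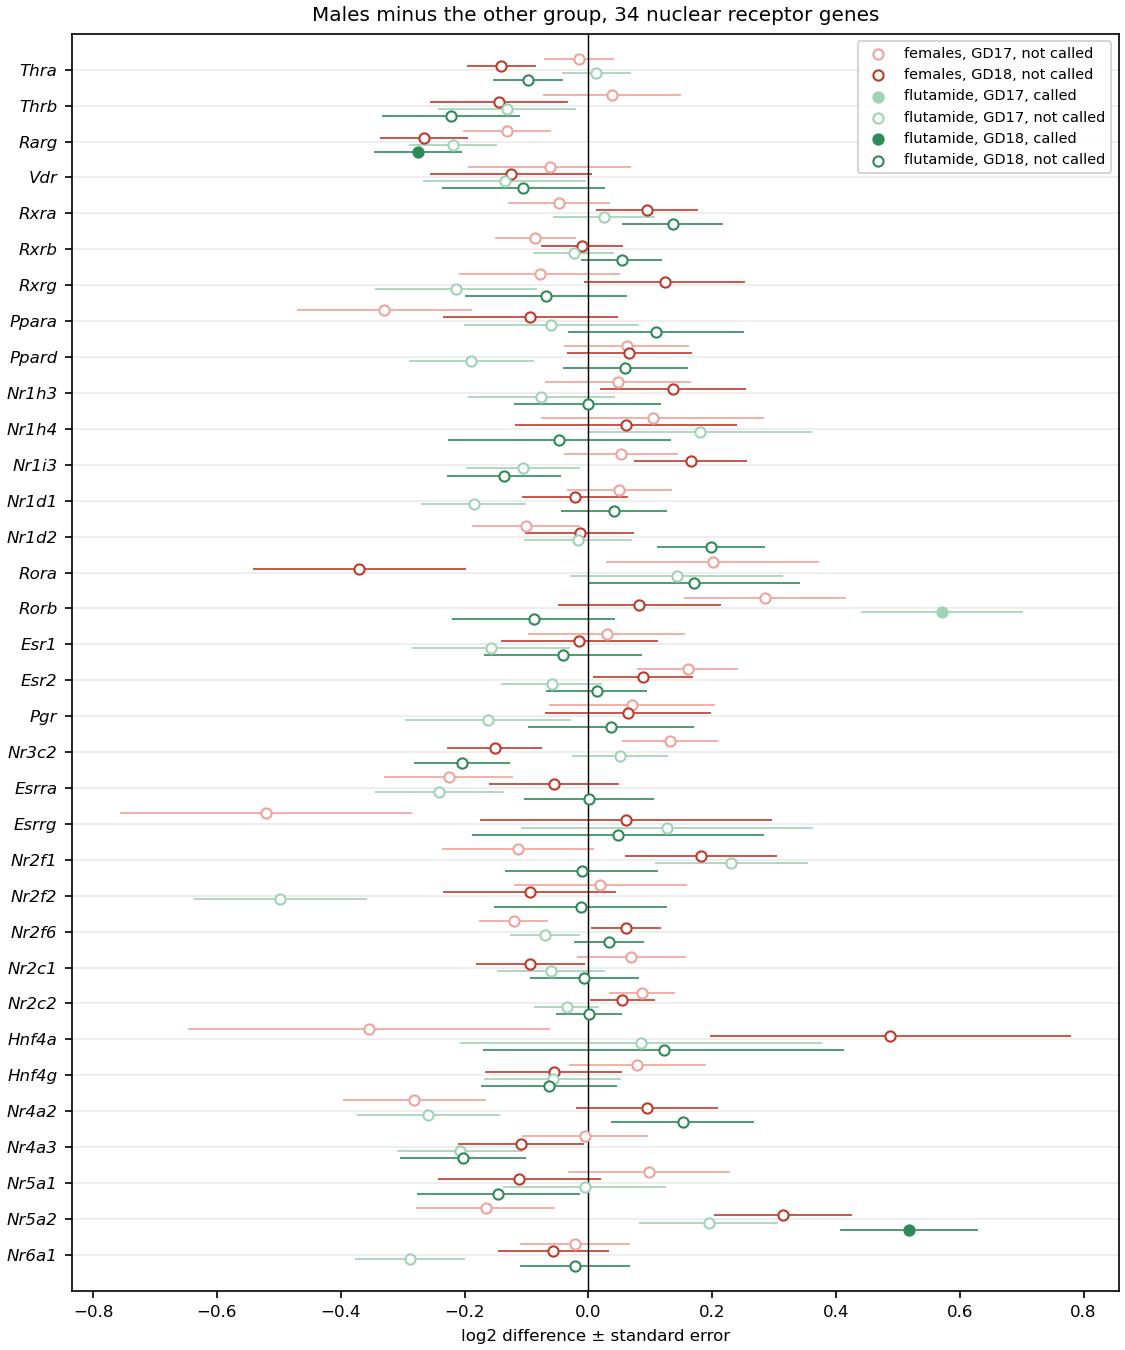
Difference in log2 RMA signal (x axis) of males minus females and of males minus flutamide-treated males on each day, with standard errors, for 34 nuclear receptor genes (y axis). Filled points are called in limma, and the 3 filled points are Rorb against flutamide at GD17 and Rarg and Nr5a2 against flutamide at GD18. The comparisons of a day share their male pools.

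The flutamide comparison asked which receptors differed when androgen action was blocked in males. The comparisons with females and with flutamide-treated males of one day share the male pools, so their values are not independent. At GD17, 1 of 34 receptors was called (2.94%), where 3.55% of probe sets and 2.69% of genes were. An unadjusted p under 0.05 was found for 7, against 18.8% of all genes. The pools did not overlap for 10 receptors, against 26.8% of all genes. The called receptor was Rorb, at 6.45, 6.04 and 6.10 in 17 m and 5.51, 5.60 and 5.77 in 17 flut. All 3 male pools were above the flutamide pools, and the difference was 0.57 (SE 0.13, adjusted p 0.0274), with 0.62 without the 5 pools. The 17 f pools, at 6.07, 5.90 and 5.76, lay between. The call was lost without 17 m pool 1 (0.45, adjusted p 0.12), without 17 flut pool 1 (0.51, adjusted p 0.109) and without 17 flut pool 2 (0.56, adjusted p 0.0917). The other 2 Rorb probe sets differed by -0.12 and -0.03. Nr2f2 had the next smallest p, with 9.81, 9.54 and 9.49 in 17 m and 10.21, 9.99 and 10.14 in 17 flut (-0.50, SE 0.14, adjusted p 0.0595), and it was called without 18 m pool 3 (adjusted p 0.0159), 18 flut pool 2 (adjusted p 0.0414) or 18 m pool 1 (adjusted p 0.0483). Its 5 other probe sets lay between -0.03 and 0.18, and 1 of them had the sign of the brightest. Nr6a1 had a difference of -0.29 (adjusted p 0.0837). The dim Nr2c2 probe set 1439696_at read 4.36, 4.35 and 4.38 in 17 flut and was called (0.57, adjusted p 0.00916).

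At GD18, 2 of 34 receptors were called between males and flutamide-treated males (5.88%), where 3.95% of probe sets and 4.22% of genes were. An unadjusted p under 0.05 was found for 4, against 18.4% of all genes. The pools did not overlap for 5 receptors, against 20.8% of all genes. Nr5a2 was at 8.23, 8.10 and 8.49 in 18 m and 7.90, 7.77 and 7.61 in 18 flut. The pools did not overlap, and the difference was 0.52 (SE 0.11, adjusted p 0.0153). It was 0.44 and not called without 18 flut pool 3 (adjusted p 0.0826), the pool with Xist in the female range. Without the 5 pools it was 0.34 (adjusted p 0.0574). The probe set 1456521_at of this gene read 6.79, 6.79 and 6.72 in 18 flut and differed by 0.41 (adjusted p 0.0152), and by 0.33 without the 5 pools (adjusted p 0.0556).

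Rarg was at 9.04, 9.08 and 8.90 in 18 m and 9.36, 9.26 and 9.23 in 18 flut. Again the pools did not overlap, and the difference was -0.27 (SE 0.07, adjusted p 0.0402). The call was lost without any single one of the 18 m or 18 flut pools, with values of -0.31 to -0.22, and without 5 single pools of the other groups (adjusted p up to 0.0562), and without the 5 pools it was -0.25 (adjusted p 0.143). The second Rarg probe set differed by -0.48 and was not called. The 18 f pools of Rarg, at 9.36, 9.24 and 9.22, were above the 18 m pools as well, by 0.27 (adjusted p 0.0686).

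No receptor had a flutamide difference called as changing between the days. The smallest p were those of Rorb (-0.66, SE 0.19, adjusted p 0.159), which was at 5.79, 5.53 and 5.99 in 18 flut and so above its level in 17 flut on the mean, and of Nr4a2 (0.41, SE 0.16, adjusted p 0.329). For the sex difference, the smallest were those of Nr5a2 (0.48, SE 0.16, adjusted p 0.0874) and Nr3c2 (-0.28, SE 0.11, adjusted p 0.147).

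The receptors act with coregulators, proteins that modify histones or hold corepressor complexes, and 28 of 30 listed ones were measured. From GD17 to GD18, 9 were called higher and 4 lower in males, 7 and 6 in females and 6 and 5 in flutamide-treated males. Of all genes, 30.1%, 39.6% and 26.7% were called in the same comparisons (17.7% higher and 12.4% lower, 17.2% and 22.5%, and 13% and 13.8%), and the median differences were 0.10, 0.07 and 0.04. The coactivators Ncoa1 and Ep300 rose, Ncoa1 by 0.51, 0.73 and 0.39 and Ep300 by 0.38, 0.58 and 0.41 in males, females and flutamide-treated males. The arginine methyltransferase Prmt1 fell in each, with -0.72, -1.13 and -0.75, and so did the coactivator Rbm14, with -0.44, -0.69 and -0.44. Leaving out the 5 pools, the counts were 4 and 3, 6 and 6, and 4 and 3. Then 18%, 25.9% and 20.5% of all probe sets were called in either direction. Between males and flutamide-treated males at GD18, Lcor, a ligand-dependent corepressor, was called higher in males (0.49, SE 0.13, adjusted p 0.0465), but not without the 5 pools (0.22, adjusted p 0.241) nor without any of 16 of the 18 single pools. No coregulator was called between the sexes on either day or between 17 m and 17 flut. At an unadjusted p under 0.05 there were 2 at GD17 and 4 at GD18 between the sexes, and 3 with flutamide at GD17. Of all genes, 13.8%, 15.1% and 18.8% were under that level in these comparisons. Without the 5 pools, 2 were called between the sexes at GD18 and 1 between 17 m and 17 flut. The shares of all probe sets were 5.16% and 8.18%.

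Known receptor targets and clock partners moved mostly upward with the day. Of 40 listed genes 35 were measured, and 21 were called higher and 1 lower in males, 25 and 2 in females, and 24 and 2 in flutamide-treated males, where 17.7%, 17.2% and 13% of all genes were called higher. The median differences were 0.33, 0.48 and 0.43, and those of all genes 0.03, -0.01 and -0.01. Klf9, a thyroid hormone and glucocorticoid target, rose by 1.28, 1.69 and 1.22 in males, females and flutamide-treated males. The clock repressor Per3 rose by 0.96, 1.15 and 0.97, and the clock output factor Tef by 1.05 in males and 1.20 in females. The clock activator Npas2 rose by 1.24 in males, the epithelial sodium channel subunit Scnn1a by 1.91 in females, and the PPAR target Pdk4 and the LXR target Mylip by 1.55 and 0.84 in flutamide-treated males. Values are given only where a gene was among the 4 of smallest p. Tef, Npas2, Scnn1a, Pdk4 and Mylip were called in each of the 3 day comparisons, so they are not particular to a sex or treatment. Without the 5 pools, 19 and 2, 22 and 2, and 23 and 2 genes were called. The shares of all probe sets, in either direction, were 18%, 25.9% and 20.5%. Many of these genes also answer glucocorticoid, so the list does not single out the receptors described here.

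**Figure D5:**
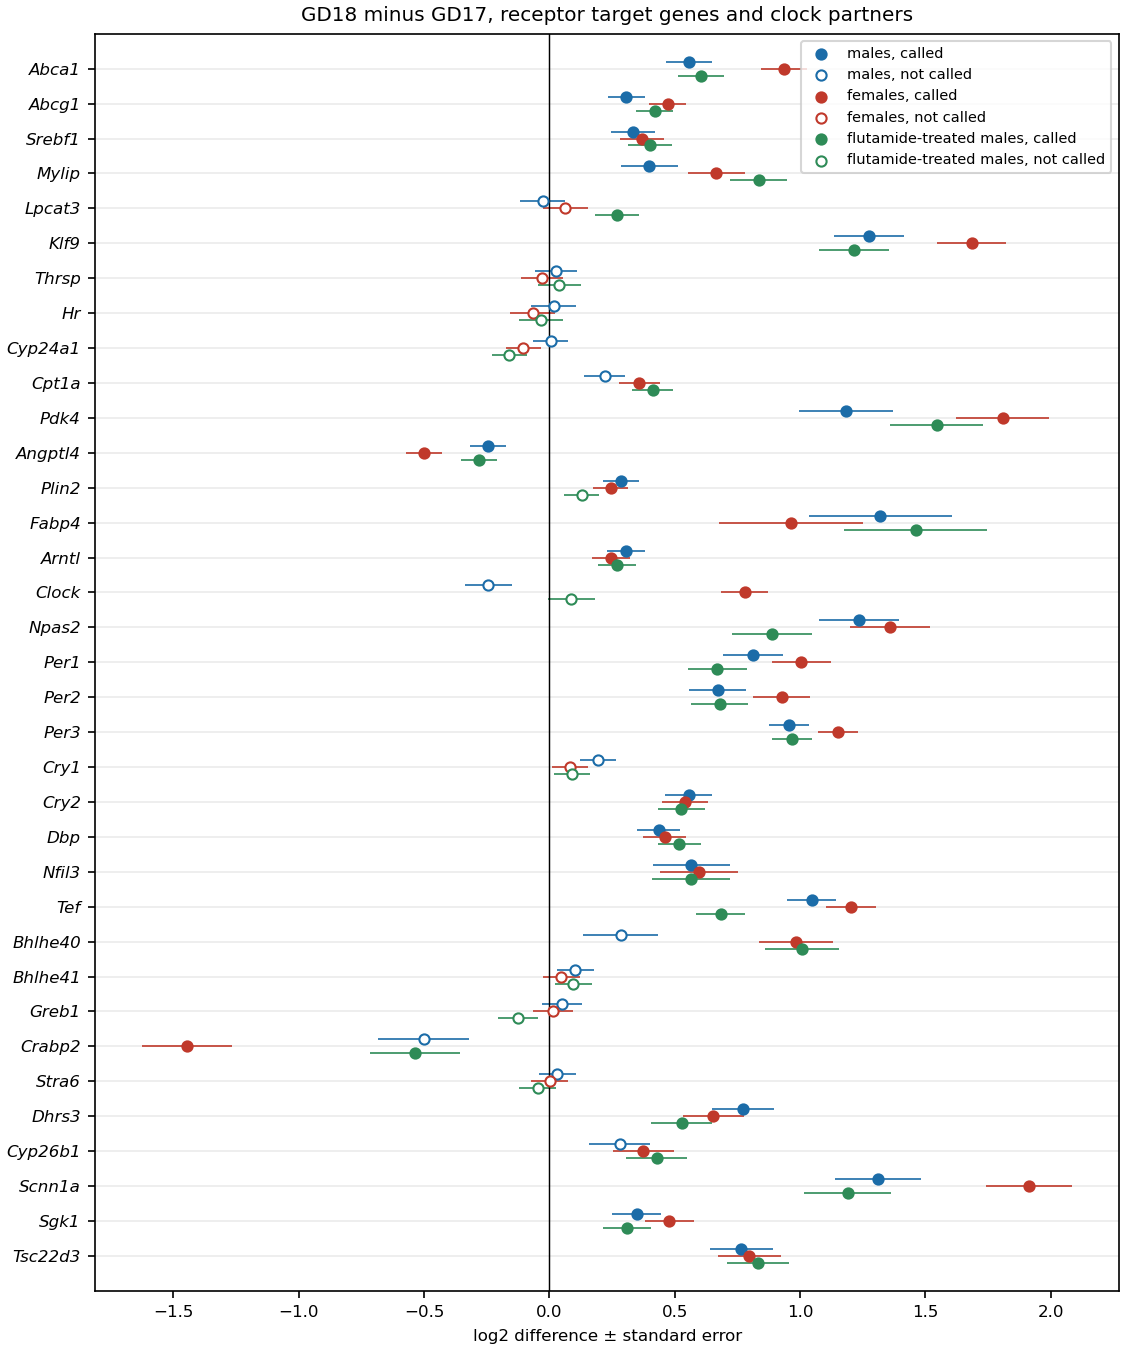
Difference in log2 RMA signal between GD18 and GD17 (x axis) with its standard error for 35 target genes of nuclear receptors and clock partners (y axis) in males, females and flutamide-treated males. Filled points are called in limma, 22 in males, 27 in females and 26 in flutamide-treated males, most of them right of 0.

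Within a day, 1 of the 35 genes was called higher and 1 lower in males than in females at GD17, and 2 lower at GD18. Against flutamide-treated males, 2 were called lower in males at GD17 and 1 at GD18. Of all genes, 1.67%, 1.68%, 2.69% and 4.22% were called in these comparisons, in the same order. Clock, the partner of the receptors in the core clock, was higher in 17 m than in 17 f (0.55, adjusted p 0.0025) and lower in 18 m than in 18 f (-0.48, adjusted p 0.0178), and Crabp2, a retinoic acid carrier, was lower in 17 m than in 17 f (-0.73, adjusted p 0.029). Bhlhe40, a clock repressor, was lower in 18 m than in 18 f (-0.67). Tef and Bhlhe41 were lower in 17 m than in 17 flut (-0.43 and -0.31), and Bhlhe41 was lower in 18 m than in 18 flut (-0.30). Without the 5 pools the Crabp2 difference was -0.45 and not called (adjusted p 0.312), nor were Tef at GD17 (-0.34, adjusted p 0.0524) and Bhlhe41 at GD18 (-0.29, adjusted p 0.096), while Clock on both days, Bhlhe40 and Bhlhe41 at GD17 were called. Each of these calls other than that of Clock at GD17 was lost when some single pools of the groups compared were left out, with 17 f pools 2 and 3 and 17 m pools 1 and 2 for Crabp2, and 18 f pool 1 and 18 m pool 1 for Clock. For Bhlhe40 they were pools 1 and 2 of 18 f and of 18 m. They were all 17 flut pools and 17 m pools 1 and 3 for Tef, all 17 flut pools and 17 m pools 1 and 2 for Bhlhe41 at GD17, and 18 flut pools 1 and 3 and 18 m pool 1 for Bhlhe41 at GD18.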

How the data were processed

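Each Affymetrix whole-genome mouse array carried cRNA of 1 lung pool, 18 in all. The authors made the deposited values by RMA, which subtracts background, normalizes by quantiles and summarises the probes, and the deposited intensity values are on a linear scale, so log2 was taken here. Quantile normalization pulls all arrays to one distribution. Depth has no meaning for arrays, and their number limits the precision. Of 45101 probe sets, 64 controls were left out and 45037 tested, 34945 with 1 gene symbol, 932 with several and 9160 with none. A linear model with 6 group means was fitted in limma 3.58.1 under R 4.3.3 (12 residual degrees of freedom), with Benjamini-Hochberg adjustment within each of 9 comparisons and a threshold of 0.05. Differences by day are the GD18 difference less the GD17 difference. By the study's methods, each pool held 3 fetuses, each of another litter, and samples were grouped by title. With 3 pools per group an exact permutation test could not go below 0.1. The fit was tested on simulated data. Members and lists were chosen with earlier results of these data known, so the counts are descriptions. Every member called in any comparison was named with all pools, the others by range. List genes were named only when called, at most 4 per list and comparison in order of p. Their values are given for the comparisons in which they were among those 4. Alternatives were another normalization (cyclic loess), a filter at the median level, array weights, fits of the compared groups alone, the mean of a gene's probe sets, a replicate block, an indicator of the pancreas-high pools and leaving out pools.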

Additional observations from a re-analysis of the deposited data

Results flagged for a closer look

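The difference between males and females changed from GD17 to GD18 for 4 probe sets, by limma's test of that change over all probe sets. The search covered the 96 receptor probe sets and the brightest probe sets of 28 coregulators and of 35 targets and clock partners. Of all probe sets 6.54% were called for such a change, and of all genes 4.77%, so the count does not set these genes apart. For the dimmer Nr2c2 probe set 1439696_at the change was -0.668 (SE 0.15, adjusted p 0.0113), from 0.65 at GD17 to -0.02 at GD18. It was -0.64 (adjusted p 0.0363) without the 5 pools that stand apart, and its call held when any 1 pool was left out. For the Nr5a2 probe set 1456521_at it was 0.524 (SE 0.13, adjusted p 0.0191), and its call was lost without 17 f pool 2, 17 f pool 3 or 18 f pool 3, or without the 5 pools (0.31, adjusted p 0.23).

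Clock, the activating partner in the core clock, was at 8.26, 8.25 and 8.06 in 17 m and 7.68, 7.68 and 7.57 in 17 f, and then at 7.77, 8.0 and 8.07 in 18 m and 8.51, 8.46 and 8.30 in 18 f. Males were above females without overlap at GD17 and below them without overlap at GD18. The change was -1.02 (SE 0.13, adjusted p 0.000222), and -1.12 without the 5 pools (adjusted p 0.00228). Crabp2, the retinoic acid carrier, was at 5.80, 5.19 and 5.95 in 17 m and 5.94, 6.74 and 6.44 in 17 f, and at 5.11, 5.05 and 5.26 and then 4.79, 5.03 and 4.96 in 18 m and 18 f. The change was 0.944 (SE 0.25, adjusted p 0.0355). Its call was lost without 17 f pool 2, 17 f pool 3, 17 m pool 2, 18 f pool 1, 18 f pool 3 or 18 m pool 1, and without the 5 pools it was 0.60 (adjusted p 0.192). No receptor was called for such a change in its brightest probe set.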

How the results depend on the processing

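Of 1011 alternative values of the 34 named differences, 866 kept their call, 145 lost it and 0 reversed. Ppara in all 3 day comparisons, Rora in females and flutamide-treated males, Nr2f1 in females and Nr5a2 in females and flutamide-treated males were called under every alternative run. The filter at the median level left 15 of the receptors untested, among them Rorb, Esr1, Esr2, Vdr, Nr1d1 and Nr3c2.

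Counts of called receptors that moved by more than 1.5 times are as follows, and the cause was not tested. Counts under the median filter cover only the receptors it kept. A percentage in brackets is the share of tested probe sets called in that fit, or of genes for the mean of probe sets. Between 17 m and 17 f, array weights gave 1 (7.85%) in place of 0 (4.1%). Between 18 m and 18 f the main count was 0 (1.85%). It was 1 with cyclic loess (1.79%), the median filter (6.38%) and the mean of probe sets (1.46%). Leaving out both pools 3 of 18 m and 18 flut (5.89%) or all 5 pools (5.16%) gave 1 each. Array weights gave 2 (10.6%). Between 17 m and 17 flut, in place of 1 (3.55%), array weights gave 4 (8.78%) and the compared groups alone 2 (3.64%). The mean of probe sets gave 0 (2.36%) and leaving out both pools 3 gave 2 (7.97%). Between 18 m and 18 flut, in place of 2 (3.95%), array weights gave 4 (12.6%) and the compared groups alone 0 (0.324%). The mean of probe sets gave 1 (3.61%), and leaving out both pools 3 (4.22%) or all 5 pools (3.32%) gave 0. Between the days, males had 11 (25%), and 7 under the median filter (44.4%) and 2 with the compared groups alone (10.6%). The receptors missing under the filter, Rorb, Esr1, Esr2 and Nr3c2, were left untested by it, and all others of the 11 kept their call. Without both pools 3 males had 7 (20.9%), and without all 5 also 7 (18%). Females had 16 (33.6%), and 9 with the indicator of the pancreas-high pools (25.9%) and 8 without all 5 (25.9%). Flutamide-treated males had 4 (20.3%), and 8 under the median filter (39.9%) and 11 with array weights (28.7%). The sex difference by day had 1 with array weights, with the mean of probe sets and without both pools 3, in place of 0 (6.54%). The choices of all 5 pools and of both pools 3 together were made after seeing the data.

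Leaving out 1 pool at a time gave 0 to 1 in both sex comparisons (2.28% to 6.54% of probe sets at GD17 and 0.415% to 6.59% at GD18). Between males and flutamide-treated males it gave 0 to 2 on each day (0.913% to 8.86% at GD17 and 1.9% to 6.64% at GD18). Between the days it gave 6 to 12 in males (19.8% to 26.1%), 8 to 18 in females (27.7% to 38.4%) and 3 to 7 in flutamide-treated males (15.2% to 25.1%). For the sex difference by day it gave 0 to 2, with 6.54% of probe sets in the main fit. Without 17 f pool 1, Esrrg was called between 17 m and 17 f (-0.90, adjusted p 0.00401), and Nr5a2 was called for its sex difference by day (0.61, adjusted p 0.0179), as it was without 18 m pool 2 (0.57, adjusted p 0.0499).

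The replicate numbers did not pair the pools, since no comparison had all of its pair correlations above 0.1, and in none did all 3 pools of a group correlate best with their own number. With the block, 1 receptor was called between 18 m and 18 flut in place of 2 (Nr5a2, adjusted p 0.0462), and 1 between 17 m and 17 flut (Nr2f2 in place of Rorb, adjusted p 0.0576 for Rorb). The day counts with the block were 11, 16 and 4, against 24.1%, 32.9% and 19.5% of probe sets. Between 18 m and 18 flut and between 17 m and 17 flut, 2.87% and 2.54% of probe sets were called with it.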
